A study of Mus musculus with 5 samples.

Results

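The miRNAs named miR-297, miR-466, miR-467 and miR-669 were examined in OP9, a stromal line from mouse bone marrow that can turn into adipocytes. They were taken by name from the deposited table, with any arm, and made up 35 of 1105 mature miRNAs and 75 of 1191 pairs of a mature miRNA and a precursor. A Drosha knockout (KO, 2 libraries) was set against an empty vector (EV, genotype labelled WT, 3 libraries). Cells of both groups were collected at day 10 with 1 µM rosiglitazone, a drug that activates PPARγ and drives fat-cell formation. The labels are silent on whether the libraries of a group were independent cultures or clones. The p-values below therefore reflect spread among these libraries alone, and that spread may be technical.

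Drosha is the nuclear RNase III enzyme that cuts hairpins out of primary miRNA transcripts. Most of these miRNAs come from 1 large intron of Sfmbt2, which encodes a Polycomb-group protein and is imprinted in mouse extraembryonic tissue. The array is found in rodents, was built by repeated duplication, and is best known from mouse embryonic stem cells and placenta. Its hairpins are near-identical copies, so one sequenced read can match many of them. A mature miRNA finds its target mRNAs mainly through its seed, a short stretch near its 5′ end.

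On GRCm38, Sfmbt2 lies on chromosome 2 at 10370510 to 10595253 on the plus strand. Intron 10 of transcript Sfmbt2-201, at 10461473 to 10523944, is 62472 bases long and holds 71 annotated hairpins with these 4 names, all on the strand of the gene. They span 51617 bases, from 10466663 to 10518279. The 10 Mir467a copies begin 2413 to 4880 bases apart, with a median of 2462, and most are followed by a Mir466 and then a Mir669 hairpin. Of the 71 precursors listed for the 35 members, 65 lie in this intron, 4 lie outside Sfmbt2 and 2 (mir-466a and mir-466c-3) found no match in the annotation.

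The 4 precursors elsewhere are Mir466k on chromosome 3 at 85467377 to 85467498, Mir669n on chromosome 3 at 115979902 to 115979955, Mir297-1 on chromosome 7 at 10958437 to 10958512, and Mir466f-4 on chromosome 13 at 71107089 to 71107209. The listed precursors of miR-466k and miR-669n all lie outside the intron, so the array's name does not hold for them. RefSeq on GRCm38.p6 gave a mature sequence for 2 of the 35 members, and they are these 2. They are shown, 5′ to 3′ with the seed (bases 2 to 8) in capitals, because their names are those of the array while their annotated locus is not.
miR-466k: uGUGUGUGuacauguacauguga
miR-669n: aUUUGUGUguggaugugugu
Both are rich in U and G, with 16 of 23 bases G or U in miR-466k and 18 of 20 in miR-669n. Each holds 7 UG dinucleotides, and the seeds differ.

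Of the 35 members, 31 have names ending in 5p, 4 carry no arm and 0 end in 3p, so the 3p arms of the array were not analysed here. TPM gives a share of the listed miRNA reads, and the differences below are in relative abundance. Fewer cells that express a miRNA and less of it per cell cannot be told apart in these bulk libraries. The table holds miRNAs only, so the cell type and the Drosha transcript were not checked here. Reads on listed miRNAs, recovered from the TPM values, totalled 304722 and 277142 in KO, against 1918589 to 2262367 in EV. These totals count a read at each precursor it was listed for. With 1 pair per mature miRNA they were 214264 and 200659 in KO, against 1347800 to 1613590 in EV. They are not the number of reads sequenced, which is not among the values used here. For a 22-base miRNA a single read equals 3.32 or 3.67 TPM in KO, while it equals 0.448 to 0.528 TPM in EV. A count of 0 allows up to 9.95 TPM (3 reads) in KO library 1, and the limit is slightly higher in KO library 2. The part of these read totals in the results was not tested.

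The members are fewer measurements than names. Identical values in all 5 libraries were found for 4 pairs, which are miR-466b-5p with miR-466o-5p, miR-466d-5p with miR-466n-5p, miR-466f with miR-466f-5p, and miR-669a-5p with miR-669p-5p. With each pair counted once, 29 measurements had reads. The values of miR-467a-5p and miR-467b-5p were not identical, but both came from 126 and 143 reads in the KO libraries and 1822, 1512 and 1787 in the EV libraries. Their TPM values differ only because they were divided by 22 and 21 bases, so 28 measurements had reads of their own. How many reads the remaining 28 share was not tested.

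Reads were also counted once at each precursor of a mature miRNA. miR-669a-5p is listed at 12 precursors and miR-467a-5p at 10, each with the same value at all of them. Summed over all 75 pairs, the members took 1.15% and 1.12% of TPM in the KO libraries, against 2.21%, 2.58% and 2.34% in the EV libraries. In 2 members the precursors differed. miR-297a-5p had 17 and 28 KO reads and 226, 233 and 143 EV reads at Mir297-1 on chromosome 7. At its 3 intron precursors it had 23 and 29 KO reads and 271, 266 and 172 EV reads. miR-466b-5p had 11 and 5 KO reads and 145, 174 and 129 EV reads at 6 of its precursors. At mir-466b-8 it had 1 and 0 KO reads and 27, 17 and 26 EV reads, and at mir-466b-2 it had 4 and 0 KO reads and 52, 46 and 46 EV reads.

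The array as a whole had a lower level in both Drosha KO libraries than in any EV library. As summed here, it includes miR-466k and miR-669n, placed outside the intron, and miR-466a-5p, whose precursor found no match. With 1 value per set of identical values, its summed level was 3192 and 3161 TPM in the KO libraries, against 6208, 6936 and 6253 TPM in the EV libraries. The sum was 2.04-fold lower in the knockout, with means of 3176 ± 22.4 TPM in KO (SD, n = 2) and 6465 ± 408 TPM in EV (SD, n = 3). With 1 value per set of identical reads the ratio of knockout to EV means was 0.480, against 0.491 for the sum above. No p-value is given for sums over the members, because the members were chosen with results known.

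The miR-467 subfamily had the largest sum in both groups, though it adds miR-467a-5p and miR-467b-5p, which came from the same reads. Its sum was 1944 and 2166 TPM in the KO libraries and 3706, 3654 and 4002 TPM in the EV libraries, 1.84-fold lower. The miR-669 sum was 839 and 638 TPM in the KO libraries and 1689, 2294 and 1504 TPM in the EV libraries, 2.48-fold lower. The miR-466 sum was 327 and 249.8 TPM in the KO libraries and 682, 840 and 646 TPM in the EV libraries, 2.51-fold lower. In these 3 subfamilies every KO library was below every EV library. The miR-297 sum, at 82.9 and 106.3 TPM in the KO libraries and 131, 148 and 101 TPM in the EV libraries, overlapped between groups.

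**Figure D1:**
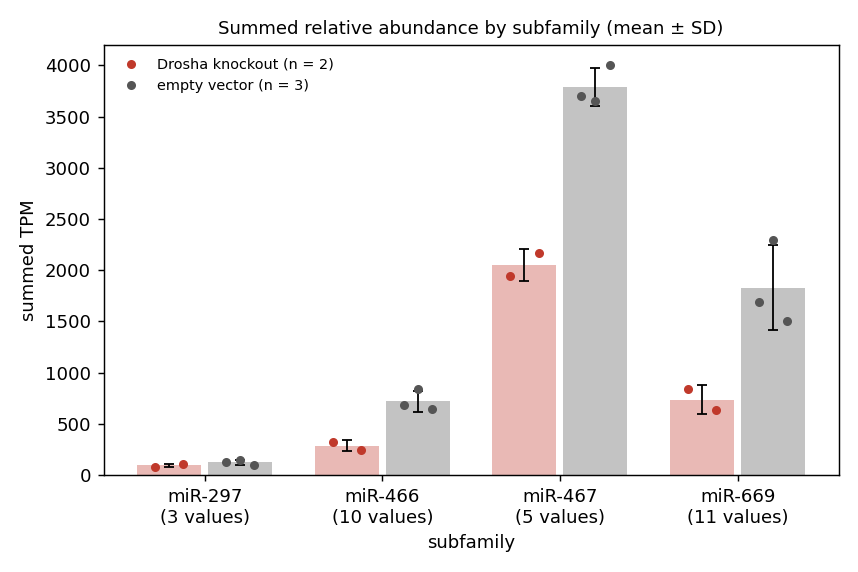
Summed TPM of each subfamily (1 value per set of identical values) by group. Bars are means, error bars SD and points single libraries, with n = 2 for the Drosha knockout on the left of each pair and n = 3 for the empty vector. The knockout points lie below all EV points for miR-466, miR-467 and miR-669 and overlap them for miR-297.

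The share of each subfamily in the array sum was also computed, with both miR-467a-5p and miR-467b-5p in the sum. Their shared reads raise the miR-467 share and lower the other shares. The miR-467 share was 60.9% and 68.5% in the KO libraries and 59.7%, 52.7% and 64.0% in the EV libraries. The miR-669 share was 26.3% and 20.2% in the KO libraries and 27.2%, 33.1% and 24.1% in the EV libraries. Both shares overlapped between the groups. The miR-466 share was 10.2% and 7.90% in the KO libraries, against 10.3% to 12.1% in the EV libraries. The miR-297 share was 2.60% and 3.36% in the KO libraries, against 2.11%, 2.14% and 1.61% in the EV libraries. For these 2 small subfamilies the groups did not overlap, though for miR-466 the nearest libraries were close.

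Single members were tested with limma across all 205 miRNAs that passed a filter of 5 TPM on the mean of the 5 libraries, with Benjamini-Hochberg (BH) adjustment over all of them. Of the 35 members 30 passed the filter, 3 had reads but were below it and 2 (miR-466l-5p and miR-669g) had no read in any library. miR-466e-5p and miR-297c-5p passed it only through EV, with KO means of 1.66 and 3.32 TPM, so their place among the lower members was partly set by the filter. The counts below include both. Among the 30, 21 were lower in the knockout, 0 were higher and 9 did not pass the threshold. At an unadjusted p under 0.05, 22 were lower and 1 higher, beside 29.8% and 30.7% of all 205, and voom, limma's weighting for read counts, called 12 lower and 0 higher on the recovered reads. Over all 205 miRNAs 27.3% were called lower and 27.8% higher, and over the 175 that are not members 20.0% were lower and 32.6% higher. Voom called 19.5% of all 205 lower. Counted as distinct values, 18 of 26 were lower (26.4% of all miRNAs so counted), and counted as distinct reads, 17 of 25 (26.0%). Of the 24 tested members with every precursor in the intron, 19 were lower, beside 27.3% of all 205. The median log2 change was -1.19 for the 30 tested members, against -0.08 for all tested miRNAs and 0.28 for the 175 others. The members' median was -1.08 over the 26 distinct values and -1.13 over the 25 distinct reads.

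KO libraries lay below every EV library for 23 of the 30 tested members, above them for 1, and overlapped for 6. Without overlap, 38.0% of all 205 miRNAs and 31.4% of the 175 others lay below. The count of members called lower was 12 without KO library 2 and 13 without EV library 1, and 16.6% of all 205 were called lower in each case. A fit without 1 KO library rests on a single KO library, which is assumed to vary as the EV libraries do. Under TMM, a trimmed-mean rescaling of libraries, 23 members were lower, beside 39.5% of all miRNAs. Rescaled to an equal sum of the Drosha-independent miRNAs named at the end, 29 members were lower, beside 78.0% of all miRNAs. The smallest tested members rest on few KO reads, with 9 of the 30 under 10 reads in each KO library.

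**Figure D2:**
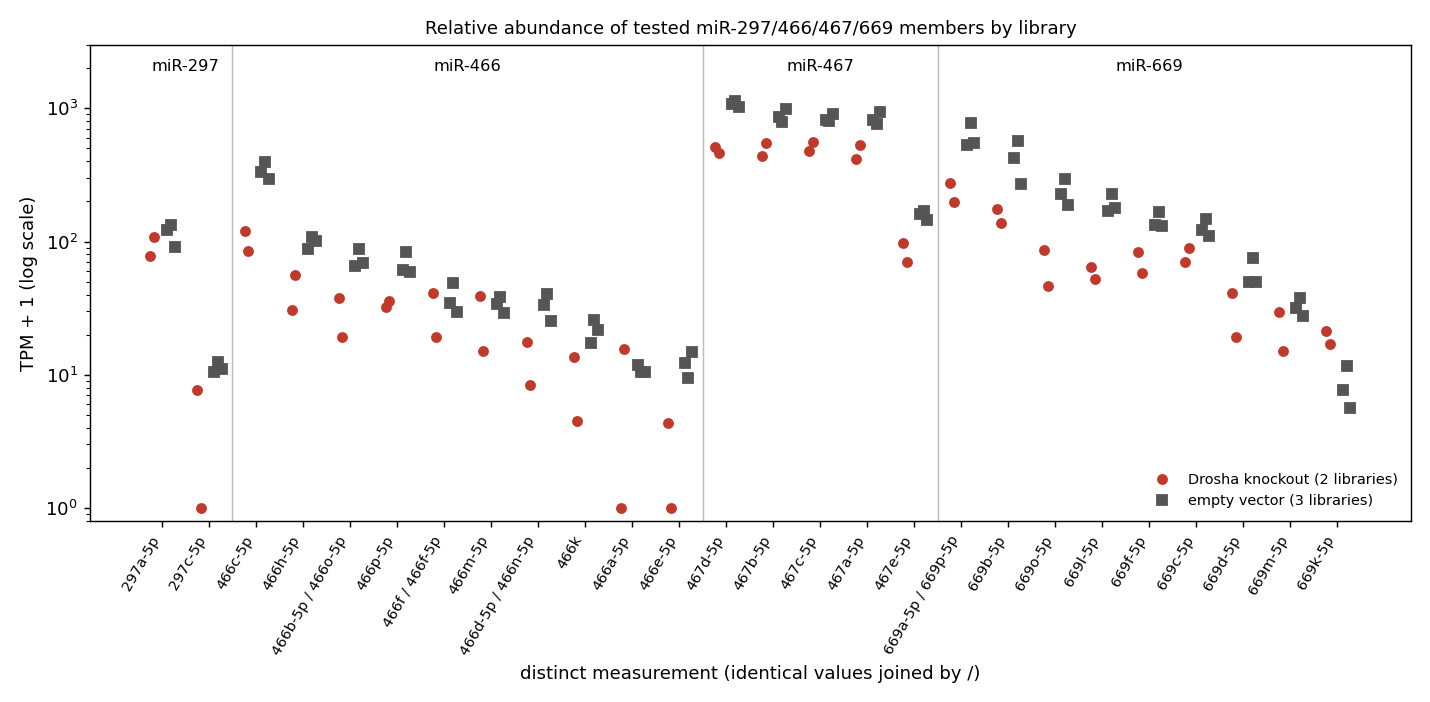
TPM + 1 (log axis) of the 26 distinct tested measurements in each library, grouped by subfamily and ordered by mean. Red circles are the 2 Drosha KO libraries and grey squares the 3 EV libraries. The miR-467 members lie highest, and miR-669k-5p at the far right is the 1 tested member with both KO libraries above every EV library.

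All 5 miR-467 members fell, where 27.3% of all 205 miRNAs did. miR-467d-5p, the most abundant member, was at 514 and 462 TPM in the KO libraries, against 1067, 1134 and 1016 TPM in the EV libraries. This was a 2.20-fold difference in means with a log2 change of -1.13 (SE 0.25, limma, BH-adjusted p = 0.000756). miR-467b-5p, reported in mouse to target the lipoprotein lipase mRNA Lpl, was at 438 and 549 TPM in the KO libraries and 855, 791 and 988 TPM in the EV libraries. Its groups were well apart, with a 1.78-fold difference and a log2 change of -0.83 (SE 0.26, limma, BH-adjusted p = 0.00916). miR-467a-5p, from the same reads, was at 418 and 524 TPM in the KO libraries and 816, 755 and 943 TPM in the EV libraries, and cannot count as separate evidence.

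miR-467c-5p was at 478 and 561 TPM in the KO libraries, against 808, 805 and 910 TPM in the EV libraries, with a log2 change of -0.70 (SE 0.26, limma, BH-adjusted p = 0.0243). Its groups did not overlap. The fifth, miR-467e-5p, had a log2 change of -0.94 at a lower level, with a mean of 82.9 TPM in KO and 158 TPM in EV. The 4 members over 100 reads in each KO library were miR-467a-5p, miR-467b-5p, miR-467c-5p and miR-467d-5p, so these are the best measured of the array. Under quantile normalization the calls of miR-467a-5p (-0.57), miR-467b-5p (-0.57) and miR-467c-5p (-0.28) were lost. They were also lost without KO library 1, with log2 changes of -0.67, -0.67 and -0.58, and that of miR-467c-5p without EV library 1 (-0.72) or 3 (-0.64). The call of miR-467e-5p was lost without KO library 2 (-0.71) or EV library 1 (-0.93) or 2 (-0.89).

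In the miR-669 subfamily 10 members were tested, of which 6 fell (27.3% over all 205 miRNAs) and the other 4 did not pass. miR-669a-5p, reported in mouse to repress the myogenic factor MyoD, was at 274 and 198 TPM in the KO libraries and 525, 767 and 549.8 TPM in the EV libraries. Its mean was 2.60-fold lower, with a log2 change of -1.37 (SE 0.29, limma, BH-adjusted p = 0.000456), and miR-669p-5p has the same values. miR-669b-5p was at 176 and 135.7 TPM in the KO libraries and 423, 566 and 271 TPM in the EV libraries, with a log2 change of -1.37 (SE 0.32, limma, BH-adjusted p = 0.000992). Its EV libraries were spread over more than those of miR-669a-5p, but none reached down to the knockout, and the call was lost without KO library 2 (-1.19).

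miR-669o-5p was at 85.7 and 45.6 TPM in the KO libraries, against 228, 293 and 187 TPM in the EV libraries. The difference was 3.60-fold, with a log2 change of -1.88 (SE 0.35, limma, BH-adjusted p = 0.000127). miR-669l-5p was at 63.0 and 51.3 TPM in the KO libraries and 169.8, 227 and 177 TPM in the EV libraries, 3.34-fold lower with a log2 change of -1.72 (SE 0.34, limma, BH-adjusted p = 0.000254). In both miRNAs the groups did not overlap. miR-669f-5p fell by 1.03 on the log2 scale, a call lost without KO library 2 (-0.78) or EV library 2 (-0.92) and under voom (-1.01). miR-669d-5p (-1.02, limma, BH-adjusted p = 0.0525), miR-669c-5p (-0.67) and miR-669m-5p (-0.61) did not pass. For miR-669d-5p and miR-669c-5p the groups nevertheless did not overlap, and both passed under TMM rescaling at -1.39 and -1.05.

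miR-669k-5p ran the other way from all other tested members. It was at 20.4 and 16.1 TPM in the KO libraries, against 6.70, 10.5 and 4.64 TPM in the EV libraries, so both KO libraries were above every EV library. Without overlap, 35.6% of all 205 miRNAs and 41.1% of the 175 others lay above. The reads behind it were 7 and 5 in the KO libraries and 17, 24 and 10 in the EV libraries. Its log2 change of 1.27 (95% interval 0.02 to 2.52) did not pass after adjustment (limma, BH-adjusted p = 0.0781), and it was -1.02 when libraries were rescaled to an equal sum of the Drosha-independent miRNAs. miR-669h-5p was below the filter, with 0 and 4 reads in the KO libraries and 8, 12 and 3 in the EV libraries, and its groups overlapped. miR-669n, outside Sfmbt2, had 1 read, in EV library 2.

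In the miR-466 subfamily 9 of 13 tested members fell, beside 27.3% of all 205 miRNAs, which are 7 of 10 distinct measurements, beside 26.4%. miR-466c-5p was at 119 and 84.0 TPM in the KO libraries and 333, 396 and 295 TPM in the EV libraries. Its groups were furthest apart among the better measured miR-466 members, at 3.37-fold and a log2 change of -1.75 (SE 0.31, limma, BH-adjusted p = 7.06e-05). miR-466h-5p, described as pro-apoptotic in hamster ovary cells, was at 29.9 and 55.0 TPM in the KO libraries and 86.9, 108 and 99.7 TPM in the EV libraries. The groups did not overlap, with a log2 change of -1.25 (SE 0.39, limma, BH-adjusted p = 0.00862), and the call was lost without KO library 1 (-0.82).

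miR-466b-5p and miR-466o-5p, with the same values, were at 36.5 and 18.3 TPM in the KO libraries and 65.0, 86.8 and 68.0 TPM in the EV libraries. Their log2 change of -1.45 was below the median of the array (SE 0.42, limma, BH-adjusted p = 0.00539), and the call was lost without KO library 2 (-0.97). miR-466p-5p was at 31.3 and 34.6 TPM in the KO libraries and 60.5, 82.1 and 58.0 TPM in the EV libraries. Its log2 change of -0.99 (SE 0.40, limma, BH-adjusted p = 0.0409) was near the threshold, and the call was lost without any 1 of the 5 libraries, at -0.83 to -1.08.

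The other miR-466 members were low. miR-466d-5p and miR-466n-5p, with the same values, had a log2 change of -1.42, with the call lost without KO library 2 (-0.88) or EV library 1 (-1.40) or 2 (-1.26). miR-466k, the tested member placed on chromosome 3, was at 12.7 and 3.51 TPM in the KO libraries and 16.3, 24.8 and 20.7 TPM in the EV libraries, from 4 and 1 KO reads. It was called lower at -1.44 (SE 0.59, limma, BH-adjusted p = 0.0430). The call was lost without KO library 2 (-0.64) or EV library 1 (-1.59), 2 (-1.30) or 3 (-1.43). Its difference therefore had the direction of the intron members, on few reads. miR-466e-5p was called lower at -2.52 from 1 and 0 KO reads, against 25, 17 and 26 in the EV libraries, and the call was lost without EV library 1 (-2.51) or 3 (-2.37). The ratio of knockout to EV reads per exposure was 0.157, with an exact 95% interval of 0.00392 to 0.905. miR-466e-5p passed the filter only through EV, so neither its call nor this interval is free of that choice.

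miR-466a-5p (-1.46), miR-466m-5p (-0.47) and miR-466f with miR-466f-5p (both -0.39) did not pass. miR-466a-5p had 0 and 4 KO reads, so its sign rested on KO library 1, and the log2 change was 0.52 without it. miR-466f and miR-466m-5p had 0.15 and 0.22 without KO library 2. The 95% intervals were -1.35 to 0.58 for miR-466f and -1.47 to 0.53 for miR-466m-5p, which include a fall as large as the median of the array.

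The miR-297 subfamily had 2 tested members, of which 1 was called lower (27.3% over all 205 miRNAs). miR-297a-5p was at 76.3 and 106.3 TPM in the KO libraries and 121, 133 and 90.7 TPM in the EV libraries. The groups overlapped, and its log2 change of -0.33 did not pass (limma, BH-adjusted p = 0.405; 95% interval -1.05 to 0.39). miR-297c-5p had 2 and 0 KO reads, against 21, 23 and 19 EV reads. It was called lower at -2.03 (SE 0.80, limma, BH-adjusted p = 0.0340). The ratio of reads per exposure was 0.339 with an exact 95% interval of 0.0402 to 1.28, which includes no difference. miR-297c-5p, too, passed the filter only through EV. Its call was lost without KO library 2 (-0.56) or without EV library 1 (-2.09), 2 (-1.95) or 3 (-2.04). miR-297b-5p, below the filter, had 8 reads, all in EV library 2.

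**Figure D3:**
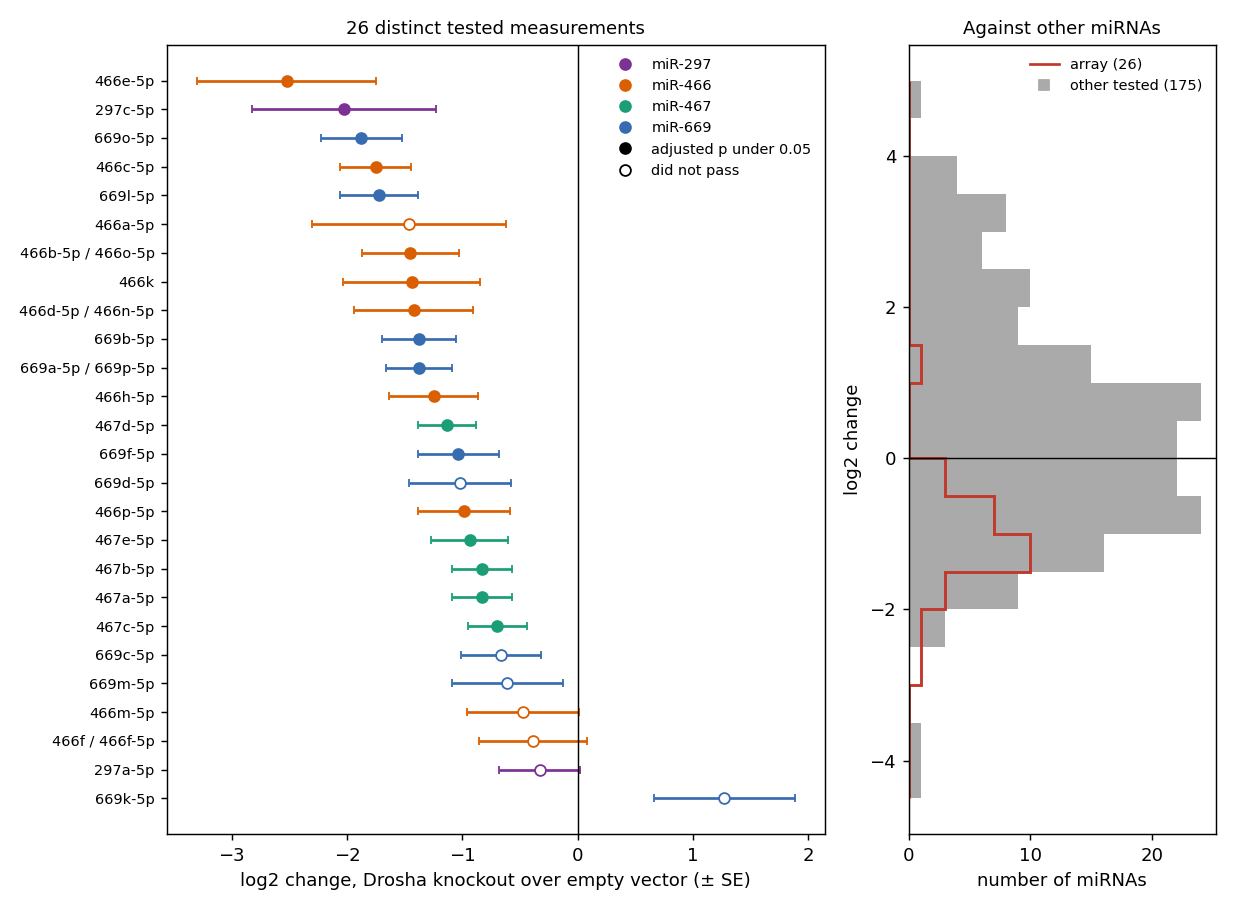
Left, log2 change (Drosha knockout over empty vector, ± SE from limma) of the 26 distinct tested measurements, with filled points for an adjusted p under 0.05. Right, the number of measurements (red outline) and of the 175 other tested miRNAs (grey) per log2 bin. All but miR-669k-5p lie below 0, while the other miRNAs are spread to both sides with a median of 0.28.

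The changes were also set beside the order of hairpins in the intron. Each mature miRNA was placed at all its hairpins with the log2 change of its precursor pair of highest mean. The listed values of miR-467a-5p, miR-466c-5p and miR-669a-5p were the same at every hairpin, so a position effect within them cannot be read. For miR-466b-5p the values listed at mir-466b-2 and mir-466b-8 differed from the one used. Members with a single hairpin near the start of the array, miR-669f-5p, miR-669b-5p and miR-669l-5p (0.566, 1.13 and 2.31 kb from the first listed hairpin), had log2 changes of -1.03, -1.37 and -1.72. Members with a single hairpin near its end, miR-466d-5p, miR-669o-5p and miR-466h-5p (45.3, 47.6 and 48.2 kb), had -1.42, -1.88 and -1.25. Of these, miR-466d-5p shares its values with miR-466n-5p, whose hairpin lies at 47.1 kb, so its value cannot be given to a single hairpin. Falls were therefore measured at both ends. Small changes stood at both ends too, with miR-466m-5p at the first listed hairpin and miR-669m-5p at 46.1 and 46.8 kb.

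**Figure D4:**
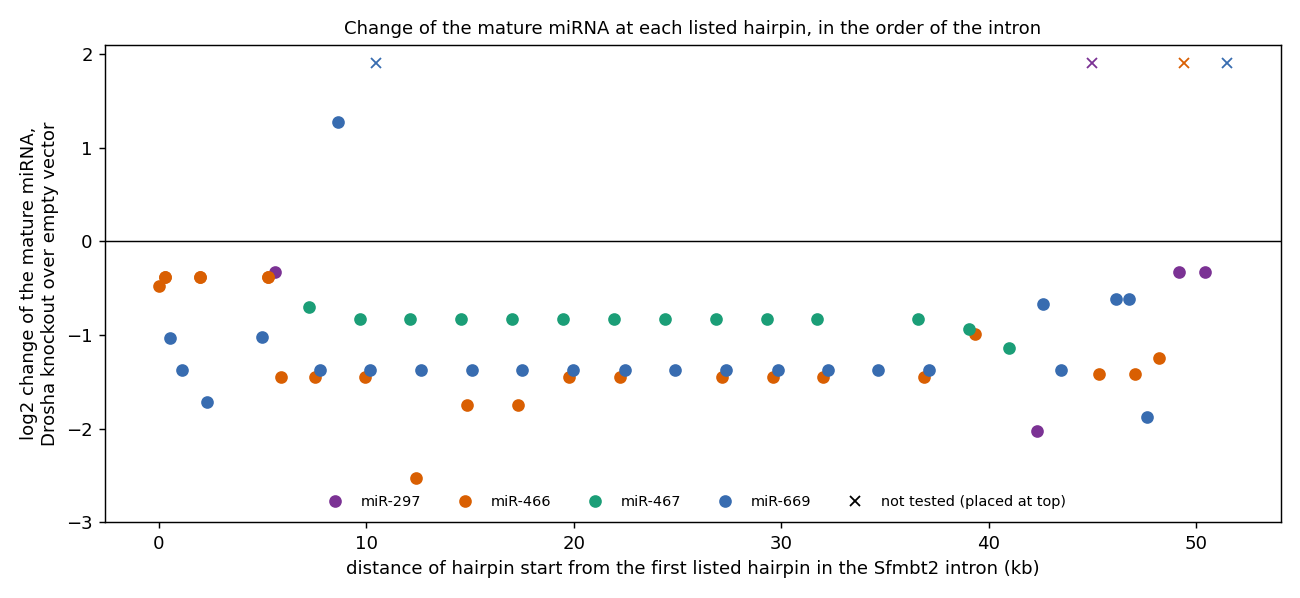
Log2 change of the mature miRNA (Drosha knockout over empty vector) at each listed hairpin, against its distance in kb from the first listed hairpin of the Sfmbt2 intron. Colours mark subfamilies and crosses at the top mark members that were not tested. A mature miRNA with several hairpins appears once at each with the change of its precursor pair of highest mean, as the runs of green miR-467a-5p points at -0.83 and blue miR-669a-5p points at -1.37 show. For miR-466b-5p this is not the value listed at mir-466b-2 and mir-466b-8.

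For comparison, lists of other miRNAs were read in the same 5 libraries. The Drosha-independent list (miR-484, the mirtrons miR-877, miR-1981 and miR-702, and miR-1839) had 4 of 5 listed members tested, and all 4 were higher. Its median log2 change was 2.76 as deposited and 2.37 under TMM, and 0.24 when its own sum was held equal between libraries. As deposited, the 4 ran from 1.17 to 4.50, so the rescaling rests on miRNAs that differed among themselves. The miR-17-92 cluster and its paralogues, another set of clustered hairpins, had 5 of 15 tested, with 1 lower and 2 higher. Its median was 0.46 as deposited and 0.08 under TMM, and turned to -2.06 under Drosha-independent rescaling. The Dlk1-Dio3 array, an imprinted miRNA array on mouse chromosome 12, had 4 of 57 tested, with 1 lower and 3 higher. Its median was 1.89 as deposited and 1.54 under TMM, and turned to -0.37 under Drosha-independent rescaling. The median of the 30 array members was -1.19, -1.57 and -3.54 under these scalings. The differences between lists were not tested.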

How the data were processed

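Small RNA libraries of OP9 cells at day 10 were compared between 2 Drosha knockout and 3 empty-vector libraries, grouped by their titles. The deposited unit is TPM over 1191 pairs of mature miRNA and precursor. From the values themselves, these are reads divided by a length, with 1 common sum per library. The submitters' processing notes name Bowtie2 2.5.1 and GRCm38 without saying what each was used for. Molecular identifiers were part of the library preparation, per the labels' protocols. Not given in the sources used here are how reads were trimmed, filtered and counted, and whether strand and identifiers were used.

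For each mature miRNA the precursor pair with the highest mean was kept. limma 3.58.1 in R 4.3.3 was fitted to log2(TPM + 1) with a mean-variance trend over 205 miRNAs whose mean reached 5 TPM. The pseudocount draws the log2 values of low miRNAs together. Folds are ratios of mean TPM, so for low miRNAs a fold and a log2 change can differ. P-values were two-sided and adjusted over all 205 by the Benjamini-Hochberg method with a threshold of 0.05. Whole reads were recovered by searching, for each pair, a length of 15 to 30 bases that made every value whole within 1e-06. This held for 100% of the 536 pairs with reads, and 6 pairs allowed more than 1 length. The length found equalled the RefSeq length for 381 of 381 mature miRNAs with a RefSeq entry. Where more than 1 length was possible, a fitting RefSeq length was taken, so the match was set in advance for such pairs. Totals, with a read counted at each precursor it was listed for, were 304722 and 277142 (knockout), and 2262367, 2028961 and 1918589 (empty vector). Intervals and floors cover counting error only.

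Hairpin positions came from GENCODE M21 on GRCm38 by symbol, and from a RefSeq synonym for Mir297-1. The members and lists were chosen with earlier results of these data known. In each subfamily, values in every library are given for the 4 distinct measurements of highest mean, other tested members by log2 change, and those under the filter by their reads. Comparison lists were Drosha-independent miRNAs, miR-17-92 with its paralogues, and the Dlk1-Dio3 array. Alternatives changed the pseudocount, filter, scaling, precursor choice, shared reads, test, replicate block and libraries. Collapsing by identical reads was added after the data were seen.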

Additional observations from a re-analysis of the deposited data

How the results depend on the processing

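Across 18 alternatives all 21 called members, which are 18 distinct values, stayed negative wherever they were tested. Among them miR-669a-5p and miR-669p-5p have the same values and are not separate evidence. The 6 members called in every alternative they entered were miR-466c-5p, miR-467d-5p, miR-669a-5p, miR-669p-5p, miR-669l-5p and miR-669o-5p. How often other called miRNAs kept their sign or call was not examined, so this stability is not shown to be particular to the members. The number of members called lower was 12 with voom on recovered reads, where miR-297c-5p, miR-466d-5p, miR-466e-5p, miR-466k, miR-466n-5p, miR-466p-5p, miR-467c-5p, miR-467e-5p and miR-669f-5p lost the call, and between 12 (without KO library 2) and 17 (without KO library 1) when 1 library was left out. Over all miRNAs, leaving out 1 library gave 34 to 52 lower and 39 to 55 higher, and the members' median log2 change ran between -1.25 and -0.93. Leaving out KO library 1 gave 0.52 for miR-466a-5p, -0.92 for miR-466f and miR-466f-5p and -1.16 for miR-466m-5p. Without KO library 2 these were -3.45, 0.15 and 0.22. The members' median was -0.85 with a pseudocount of 10, -1.57 under TMM and -3.54 when libraries were rescaled to an equal Drosha-independent sum.

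As deposited 57 miRNAs were higher and 56 lower, against 42 and 81 under TMM and 3 and 160 under Drosha-independent rescaling, where 29 members were lower. The median of all tested miRNAs was -0.08, -0.47 and -2.53 under these scalings, and -0.26 under quantile normalization. TMM and Drosha-independent rescaling multiply each library by 1 factor, so members and other miRNAs shift nearly alike by construction. The members' median minus that of other miRNAs was -1.47 as deposited, -1.36 with identical values collapsed and -1.34 under quantile normalization. This gap was -1.11 with a pseudocount of 10, and -1.09 both without a filter and with one of 20 TPM. It was -1.60 without KO library 1 and -1.17 without KO library 2. The ratio of knockout to empty-vector sums under TMM was 0.377 for the array, 0.569 for miR-297, 0.309 for miR-466, 0.415 for miR-467 and 0.313 for miR-669. Under Drosha-independent rescaling these ratios were 0.0846, 0.127, 0.0683, 0.0942 and 0.0686, and miR-669k-5p turned to -1.02. The list's own sum cannot differ between libraries under that rescaling. Without 1 library the ratios ran from 0.482 to 0.510 for the array, 0.655 to 0.840 for miR-297, 0.346 to 0.452 for miR-466, 0.513 to 0.572 for miR-467 and 0.349 to 0.463 for miR-669.

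With the replicate number as a block, 35 miRNAs (17.1%) and 9 members were lower, from 4 libraries, since EV library 3 shares its number with no KO library and adds nothing to the contrast. Whether the numbers pair the libraries cannot be told from these values. Deviations from the group mean correlated at -0.12 for number 1 and -0.14 for number 2. With 2 KO libraries these deviations mirror each other, so the other KO library gives the same values with the opposite sign. Fits without 1 KO library take their spread from the EV libraries alone. Of the 30 tested members, 9 had under 10 reads in each KO library. The causes of lost calls were not tested.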

Other observations

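Hairpin length was looked at after the values were seen. Of the 65 listed hairpins in the intron, 5 were longer than 120 bases. Mir669k (127 bases) and Mir669h (125 bases), the longest, belong to the 2 members whose mean was higher in the knockout, at 18.3 against 7.29 TPM for miR-669k-5p and 6.72 against 3.41 TPM for miR-669h-5p in knockout and empty-vector libraries. The knockout mean of miR-669h-5p came from 4 reads in 1 library. Mir669g (123 bases) and Mir466l (121 bases) gave no read for their listed mature miRNA in any library. Mir669f (121 bases) gave miR-669f-5p, which was called lower (-1.03). Outside the intron, Mir466k and Mir466f-4 were also longer than 120 bases by their positions. miR-466k was called lower (-1.44), and miR-466f (-0.39), listed at intron hairpins too, did not pass. Whether hairpin length bears on these values was not tested.

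Near-equal reads were also seen outside the identical sets. miR-466f, miR-466m-5p and miR-669m-5p had 12, 12 and 9 reads in KO library 1, 5, 4 and 4 in KO library 2, 75, 77 and 72 in EV library 1, and 54, 56 and 53 in EV library 3. In EV library 2 they had 95, 78 and 77, so miR-466f departed from the others there. Mir466m and Mir466f-1 begin 0.281 kb apart, while the nearer Mir669m copy begins 46.1 kb from Mir466m. None of these 3 passed the threshold. A closer case was miR-466e-5p, called lower, with 1 and 0 KO reads and 25, 17 and 26 EV reads. At mir-466b-8, miR-466b-5p had 1 and 0 KO reads and 27, 17 and 26 EV reads. How many reads any of these miRNAs share was not tested.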
